A study of Homo sapiens with 11 samples.

Results

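JMJD1C binding was described at 7 genes of the neutrophil primary granule and of lysozyme (MPO, AZU1, PRTN3, ELANE, CTSG, CST7 and LYZ), which lie at 5 loci. Peaks of the Kasumi-1 JMJD1C library were taken as members when their start plus summit offset lay within 50 kb of these gene spans on hg19. The spans, rounded to 1 kb, were 56.347 to 56.358 Mb on chromosome 17 for MPO, 0.828 to 0.856 Mb on chromosome 19 for the AZU1-PRTN3-ELANE cluster, 25.043 to 25.045 Mb on chromosome 14 for CTSG, 24.93 to 24.94 Mb on chromosome 20 for CST7 and 69.742 to 69.748 Mb on chromosome 12 for LYZ. This gave 20 of the 36191 peaks in the deposited list. The series holds 11 libraries of chromatin immunoprecipitation with sequencing or input DNA from 4 established leukaemia lines, Kasumi-1, HL60, NB4 and THP-1. The library described here is Kasumi-1 in standard culture, with no treatment named, a myeloblast line from acute myeloblastic leukaemia that carries the RUNX1-RUNX1T1 fusion, precipitated with an anti-JMJD1C serum against the N-terminal part of the protein. It is 1 library of 1 line without a replicate, called by the authors without an input, so no spread between replicates and no test can be given. The other 10 libraries, the Kasumi-1 input among them, were not analysed here. After 1 tag per position was kept, 19897991 tags were left.

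Primary granules are built at the promyelocyte stage of neutrophil development and carry the enzymes with which neutrophils kill ingested microbes. Myeloperoxidase (MPO) makes hypochlorous acid; neutrophil elastase (ELANE), proteinase 3 (PRTN3) and cathepsin G (CTSG) are serine proteases; azurocidin (AZU1) is a related protein that has lost protease activity and acts as an antimicrobial. Cystatin F (CST7) inhibits cathepsins, among them the one that activates the granule serine proteases, and lysozyme (LYZ) cleaves bacterial cell walls in granulocytes and monocytes. Several of these genes are known targets of RUNX1, PU.1, C/EBP and MYB, and JMJD1C belongs to the JmjC-domain family of histone demethylases.

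RefSeq's promoter table (GRCh38.p14) held 3 of the 7 genes, AZU1, PRTN3 and CTSG. Their 250 bases before the gene start are shown because AZU1 and CTSG have a JMJD1C peak at the 5′ end and PRTN3 lies in the same cluster as AZU1; no base of the peaks themselves was read. Each runs 5′ to 3′ on the strand of its gene (chromosome 19, plus strand, for AZU1 and PRTN3; chromosome 14, minus strand, for CTSG). Capitals mark matches, on either strand, to the words TGTGGT (RUNX), CANNTG (E-box), GAGGAAGT (PU.1), TTNCNNAA (C/EBP) and NAACNG (MYB).
AZU1: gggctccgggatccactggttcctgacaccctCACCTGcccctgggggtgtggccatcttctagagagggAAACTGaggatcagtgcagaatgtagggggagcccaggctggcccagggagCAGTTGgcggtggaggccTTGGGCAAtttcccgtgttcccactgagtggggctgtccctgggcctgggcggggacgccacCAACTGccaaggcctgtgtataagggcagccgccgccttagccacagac
PRTN3: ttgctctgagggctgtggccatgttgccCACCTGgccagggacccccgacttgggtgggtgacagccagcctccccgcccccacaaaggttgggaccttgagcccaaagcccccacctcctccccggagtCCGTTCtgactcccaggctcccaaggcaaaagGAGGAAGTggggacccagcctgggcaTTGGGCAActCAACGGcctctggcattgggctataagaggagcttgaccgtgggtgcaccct
CTSG: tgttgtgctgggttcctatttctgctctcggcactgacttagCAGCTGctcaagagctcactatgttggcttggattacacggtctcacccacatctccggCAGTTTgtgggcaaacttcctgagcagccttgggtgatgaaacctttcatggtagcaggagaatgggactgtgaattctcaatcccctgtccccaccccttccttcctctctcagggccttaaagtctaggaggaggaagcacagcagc

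The E-box word was in all 3 sequences and in 61.8% of the 34943 promoters searched, and its CAGNTG form was also in all 3 and in 42.5% of the table. The MYB word was in all 3 and in 70.4% of the table. It takes any first base, whereas the MYB site has C or T there. The CTSG match CAGTTT reads AAACTG on the other strand, so CTSG lacks the stricter form. AZU1 (CAACTG) and PRTN3 (CAACGG) have it, and its share in the table was not determined. In AZU1 the MYB matches CAGTTG and CAACTG are also E-box matches. The C/EBP word was in AZU1 and PRTN3 and in 33.2% of the table, and both genes had it with the same letters, TTGGGCAA, from 111 to 104 bases before the start in AZU1 and from 62 to 55 in PRTN3. The PU.1 word was in PRTN3 alone of the 3, from 88 to 81 bases before its start, and in 2.17% of the table. The RUNX word TGTGGT and the TATA word TATAAA were in none of the 3 windows (11.0% and 10.8% of the table). Each is a single strict form, and variants of it were not searched, so RUNX-like or TATA-like letters may still be present. The GC-box word GGGCGG was in AZU1 and PRTN3 (42.5% of the table) and CCAAT in PRTN3 (32.0%). With 3 sequences these are descriptions of letters and not of bound factors.

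Of the 5 rounded spans, 4 (MPO, AZU1, CTSG and CST7) had a JMJD1C peak at or within 1 kb of the 5′ end. No peak lay over the LYZ span or upstream of it within 50 kb. The 3 peaks nearest MPO and the 4 between the upstream flank and the middle of the AZU1-PRTN3-ELANE cluster held 87 to 405 tags and had 201 to 522 tags per 10 kb outside called peaks around them. The 5′ peaks of CTSG and CST7, of 613 and 592 bp, held 64 and 67 tags and had 89.5 and 116 tags per 10 kb around them. How many peaks of the whole list lie at gene starts was not determined, so the 4 loci are a description. MPO had 6 peaks with 942 tags in all (exact Poisson 95% interval 883 to 1004, counting error only), the cluster had 8 with 551 tags (506 to 599), CST7 had 3 with 143 (121 to 168), CTSG had 1 with 64 (49.3 to 81.7) and LYZ had 2 with 54 (40.6 to 70.5). Scaled to the window, MPO had 849 peak tags per 100 kb against 138 over chromosome 17, and the cluster had 430 against 159 over chromosome 19. The other 3 loci had 130 against 75.2 (CST7, chromosome 20), 62.7 against 56.9 (CTSG, chromosome 14) and 50.9 against 81.5 (LYZ, chromosome 12). Of the 942 MPO tags, 405 lay in 1 peak. The chromosome figures are means from the first to the last peak. Windows around other genes were not compared, so these ratios are a description. In peak number the density of each chromosome between its first and last peak would put 2.62 peaks in the MPO window, 3.88 in that of the cluster, 1.28 in that of CTSG, 1.80 in that of CST7 and 1.55 in that of LYZ. The counts of CTSG, CST7 and LYZ are too small to tell apart from those figures, since their exact Poisson intervals (0.025 to 5.57, 0.619 to 8.77 and 0.242 to 7.22 peaks) include them. The same holds for MPO (2.20 to 13.1) and the cluster (3.45 to 15.8). Peaks are named below by locus and by their order along the chromosome, and the name does not assign a peak to a gene.

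**Figure D1:**
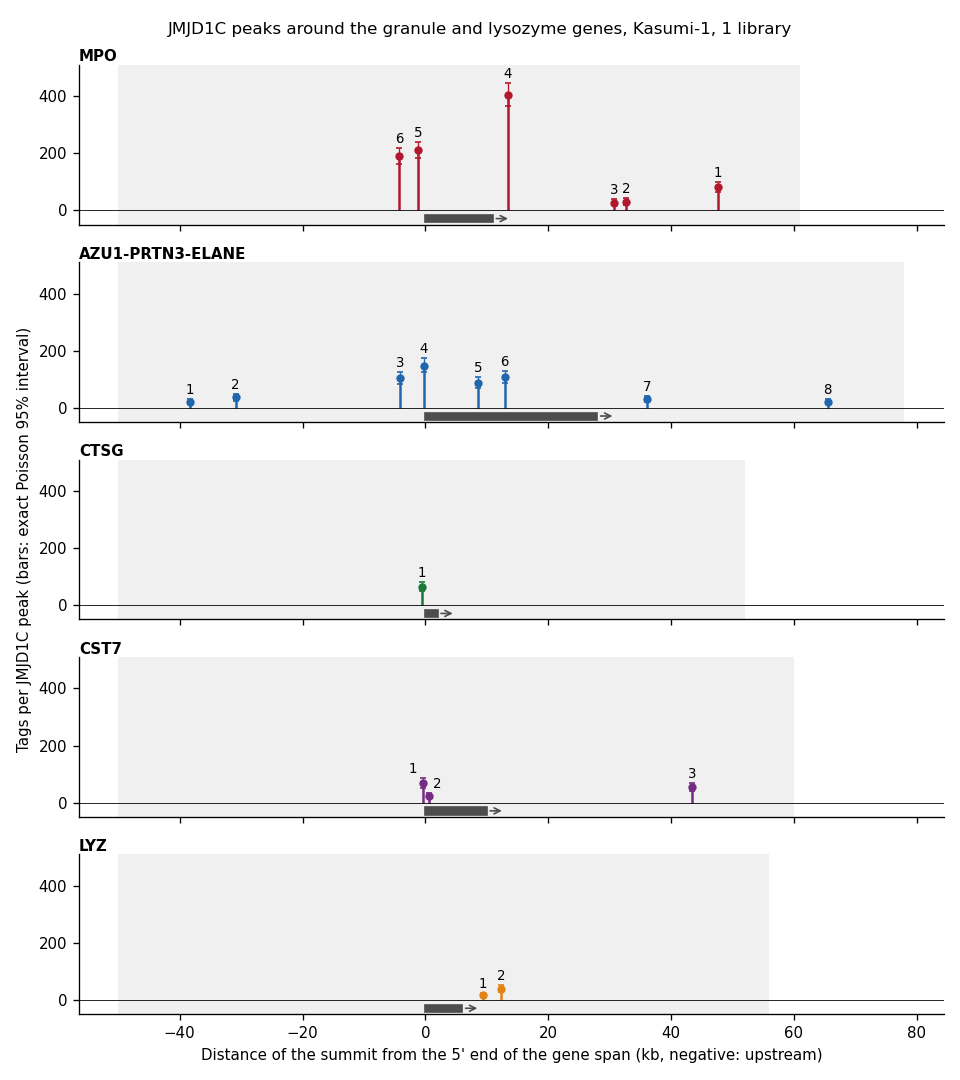
Tags of each JMJD1C peak (vertical axis, with exact Poisson 95% intervals) against the distance of its summit from the 5′ end of the gene span in kb (horizontal axis, negative values upstream), with 1 panel per locus. Dark bars are the gene spans with an arrow in the direction of transcription, grey is the 50 kb window, and numbers give the order of the peaks along the chromosome. MPO peaks 4, 5 and 6 flank the gene with 190 to 405 tags, while both LYZ peaks lie beyond the 3′ end with 16 and 38 tags.

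At MPO, which is transcribed from the minus strand, tag-rich peaks flanked the gene on both sides and the gene span itself held none. MPO peak 5 (56358801 to 56359788) began 0.801 kb upstream of the 5′ end, with its summit at 1.21 kb. It held 210 tags (183 to 240), and 2.19% of all peaks held as many. MPO peak 6 (56361542 to 56362703) followed with its summit 4.30 kb upstream and held 190 tags (164 to 219). These peaks are 3.10 kb apart from summit to summit, and their tag intervals overlap. On the other side, MPO peak 4 (56341690 to 56346487) ended just short of the 3′ end of the span, with its summit 2.40 kb beyond it. It was the longest member at 4798 bp, a length that 14 of the 36191 peaks reached, and it held the most tags of the 20, 405 (367 to 446). RefSeq places the lactoperoxidase gene LPO next to MPO on this side and TSPOAP1 on the other, so none of the 3 peaks can be given to MPO by position alone. Between peaks 4 and 5 a stretch of 12.3 kb, which includes all 11 kb of the MPO span, had no called peak.

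The remaining MPO peaks lay downstream, 19.7 to 36.6 kb beyond the span, and each held fewer tags than MPO peaks 4, 5 and 6. MPO peak 1 (56309989 to 56310706) held 81 tags (64.3 to 101) in 718 bp and had the highest fold of all 20, 21.01. MPO peaks 2 and 3 (56325167 to 56325702 and 56326869 to 56327470) were weak, with 29 (19.4 to 41.6) and 27 (17.8 to 39.3) tags, and lay 1.96 kb apart.

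In the AZU1-PRTN3-ELANE cluster, transcribed from the plus strand, 4 of the 8 peaks lay between 4.08 kb upstream and 12.9 kb inside the span, and those 4 held 87 to 148 tags. Cluster peak 4 (827458 to 829434) covered the 5′ end of the span, which is the AZU1 start, with its summit 0.205 kb upstream, at 17.0% of the peak's length. That offset is less than the 0.5 kb to which the rounded span fixes the start. The peak held 148 tags (125 to 174) in 1977 bp, and 0.64% of all peaks were as long. Cluster peak 3 (823446 to 824209), 3.87 kb further upstream, was narrower at 764 bp and held 103 tags (84.1 to 125). Inside the span, cluster peaks 5 (836313 to 837114) and 6 (840356 to 841818) held 87 (69.7 to 107) and 106 (86.8 to 128) tags, with summits 8.60 and 12.9 kb from the AZU1 end. All 4 were above the median of the list, 30 tags, and the intervals of peaks 3, 5 and 6 overlap.

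The rule gives only the outer ends of the cluster, so which of these peaks lies at PRTN3, the middle gene, was not determined. ELANE is the last gene of the cluster, and the last 14.2 kb of the span held no called peak. The peak-free stretch ran on to 21.9 kb, up to cluster peak 7 (863758 to 864241), which held 29 tags (19.4 to 41.6) 8.04 kb beyond the span. RefSeq places CFD, which encodes complement factor D, next on that side. Cluster peaks 1 (789448 to 789802), 2 (796744 to 797356) and 8 (893333 to 893723) lay 30.9 to 38.4 kb outside the span and held 21, 36 and 21 tags, on both sides of the list's median. RefSeq places PTBP1 and PLPPR3 on the upstream side and CFD and MED16 on the other. Cluster peaks 1, 2, 7 and 8 therefore cannot be given to the cluster genes by position alone.

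CTSG, transcribed from the minus strand and separate from the other serine protease genes, had a single peak, at its 5′ end. CTSG peak 1 (25045232 to 25045844) began 0.232 kb upstream of the span, less than the 0.5 kb to which the rounded span fixes the gene end. It held 64 tags (49.3 to 81.7) in 613 bp at a fold of 18.43, which 13.1% of all peaks reached. No other peak was called within 84.0 kb of its summit. In RefSeq's order CTSG lies between CMA1, which encodes mast cell chymase, and the granzyme genes GZMH and GZMB, serine proteases of cytotoxic lymphocytes.

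At CST7, transcribed from the plus strand, CST7 peak 1 (24929475 to 24930066) covered the 5′ end of the rounded span, with its summit 0.351 kb upstream. Its end and its summit both lie nearer to that start than the 0.5 kb to which the rounding fixes it. The peak held 67 tags (51.9 to 85.1) in 592 bp at a fold of 18.74. CST7 peak 2 (24930388 to 24930805) lay inside the rounded span, 0.906 kb further on by summit. It was weaker, with 23 tags (14.6 to 34.5) and a fold of 5.33. Their tag intervals do not overlap. CST7 peak 3 (24973002 to 24973798) lay 33.4 kb beyond the 3′ end with 53 tags (39.7 to 69.3), on the side where RefSeq places APMAP. Its distance from the APMAP start was not determined, so it cannot be given to CST7 by position alone. Upstream, the next called peak was 612 kb away, so the 5′ peak of CST7 stands at the edge of a long stretch without peaks.

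LYZ had no called peak over its span. Both peaks of its window lay beyond the 3′ end, on the side where RefSeq places YEATS4, a gene of chromatin-modifying complexes. Their distance from the YEATS4 start was not determined, so neither can be given to LYZ by position alone. LYZ peak 1 (69751264 to 69751552) held 16 tags (9.15 to 25.98), the fewest of the 20, and LYZ peak 2 (69753792 to 69754442) held 38 (26.9 to 52.2), with summits 3.40 and 6.28 kb from the span. Their folds were 6.64 and 7.73. The peak-free stretch over LYZ was 73.0 kb long, from 69678282 to 69751263. The limit of detection there is that of the caller, and the tags it needs rise with the local background. The weakest peaks of the list rest on 9 tags. LYZ peak 1, with 16 tags in a 10 kb window of 154, scored 53.4, near the lowest score of the list, 50. That window lies mostly beyond the 3′ end, with 1.60 kb of it in the LYZ span. The background over the rest of the span was not recovered. How weak a peak could have been called there was thus not determined.

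Just outside the 50 kb limit, a peak of 20 tags lay 50.3 kb downstream of MPO, 0.287 kb past the limit, which is less than the rounding of the spans. A peak of 4124 bp with 533 tags lay 57.5 kb upstream of MPO, and for the cluster the nearest peaks outside were at 51.4 kb (26 tags) and 56.6 kb (31 tags). Just inside, the outermost members were cluster peak 1 at 38.4 kb, cluster peak 8 at 37.5 kb and MPO peak 1 at 36.6 kb.

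**Figure D2:**
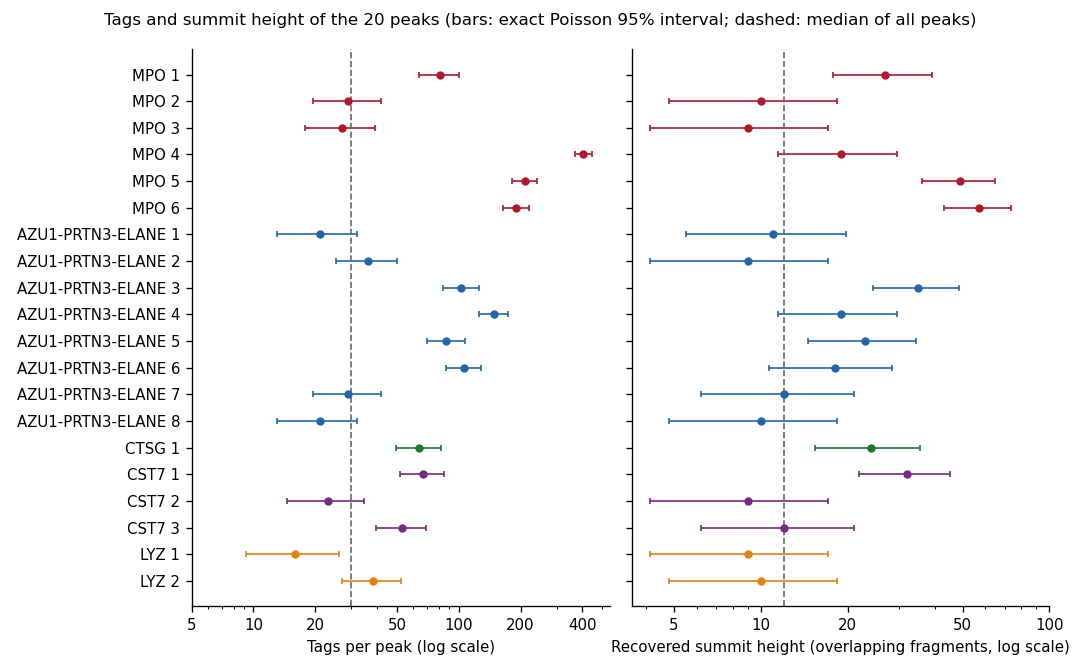
Tags per peak (left) and recovered summit height (right, fragments overlapping at the summit), both on log axes, for the 20 peaks in their order along each chromosome. Bars are exact Poisson 95% intervals and dashed lines the medians of all peaks, 30 tags and 12 fragments. MPO peak 4 has the most tags but a summit of 19, while MPO peaks 5 and 6 have the highest summits, 49 and 57.

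The authors' fold enrichment ranked these peaks differently from their tags. Of the 20 peaks, 3 had a fold of 10 or more (15.0%, exact Clopper-Pearson interval 3.21% to 37.9%), MPO peak 1, CTSG peak 1 and CST7 peak 1, against 60.1% of all peaks. In contrast, 100 tags or more were held by 6 of the 20 (30%, 11.9% to 54.3%) and by 10.1% of all peaks; these 6 were MPO peaks 4, 5 and 6 and cluster peaks 3, 4 and 6. None of these 6 reached a fold of 10 (0 of 6, an interval of up to 45.9%), a level reached by 81.7% of the 3659 peaks of the list with 100 tags or more. MPO peak 4, with the most tags of the 20, had a fold of 4, and 99.9% of all peaks had at least that. The median fold of the 20 was 8.16 (order-statistic interval 6.64 to 9.47) against 10.87 in the list, and the median tag number 58.5 (29 to 103) against 30. Lengths over 1000 bp were reached by 4 of the 20 (MPO peaks 4 and 6, cluster peaks 4 and 6; 8.29% of all peaks), and 14 of the 20 had another peak within 10 kb by summit (70%, 45.7% to 88.1%; 48.1% of all peaks). All thresholds were chosen with earlier results of these data known, and those other than a fold of 10 with the present values in view. Peaks of one locus share their surroundings and are not independent.

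**Figure D3:**
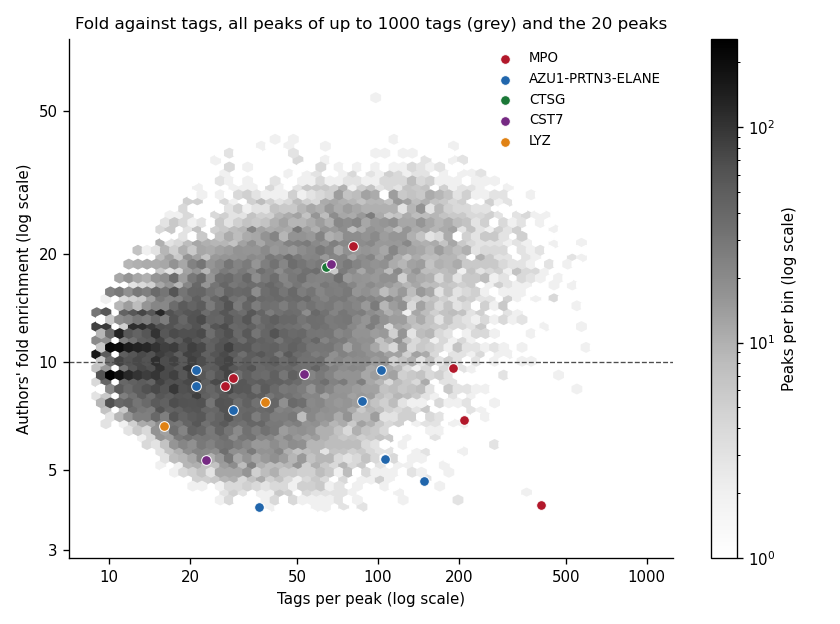
The authors' fold enrichment against tags per peak, both on log axes, for all peaks of up to 1000 tags (grey bins, darker for more peaks) and for the 20 peaks, coloured by locus. The dashed line is a fold of 10. The 6 peaks with 100 tags or more lie below the line while 81.7% of all peaks with that many tags lie on or above it, and 3 of the 20 peaks lie above it.

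Each fold divides the summit by the tags of the 10 kb around the peak, so both parts were recovered from the deposited tags, score and fold. The summit heights were 9 to 57 overlapping fragments. MPO peak 6 was highest with 57 (exact Poisson interval 43.2 to 73.9), then MPO peak 5 with 49 (36.3 to 64.8), cluster peak 3 with 35 (24.4 to 48.7) and CST7 peak 1 with 32 (21.9 to 45.2). These 4 had a height of at least 30, as had 13.1% of all peaks, and their intervals overlap between neighbours in this order. The height of MPO peak 6 was reached by 3.30% of all peaks, whereas its fold of 9.62 was reached by 63.7%. MPO peak 4 combined its length with a low summit of 19 (11.4 to 29.7), no higher than that of cluster peak 4, also 19. LYZ peaks 1 and 2 had heights of 9 and 10, below the list's median of 12.

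The 10 kb around MPO peak 5 held 810 tags, which was 11.0 times the genome mean of 73.7 per 10 kb, and only part of them lay in peaks. Its own tags and those of MPO peak 6 made up 49.4%. The 410 tags left in the bases outside called peaks correspond to 522 per 10 kb, 7.09 times the mean, and 57 of 35720 peaks (0.16%) had a surround as rich. This window reached 3.79 kb into the MPO span. Around MPO peak 6, whose window overlaps that of peak 5, the tags outside peaks came to 348 per 10 kb, and around MPO peak 4 to 260. Farther out, the surround of MPO peaks 1, 2 and 3 was 70.0, 79.0 and 71.1 tags per 10 kb, close to the genome mean and below the median of 115 over chromosome 17. The rich surround was thus not seen 20 to 37 kb downstream of MPO. How far it extends upstream of MPO peak 6 was not measured, as no further member lies there.

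In the cluster the highest surround was below that of MPO peaks 5 and 6, and cluster peaks 2 to 6 had 201 to 292 tags per 10 kb. Outside called peaks, the signal was 265 tags per 10 kb around cluster peak 3 and 292 around cluster peak 4, then 201 and 242 around cluster peaks 5 and 6 inside the span. It was still 239 around cluster peak 2, 30.9 kb upstream, and 129.6, 164 and 103 at cluster peaks 1, 7 and 8. The median over chromosome 19 was 104. Around the other loci it was 89.5 tags per 10 kb at CTSG, 102 to 116 at CST7 and 103 to 110 at LYZ, against chromosome medians of 90.02, 91.4 and 109. These values are above those of MPO peaks 1 to 3, similar to that of cluster peak 8, and below those of the other members. In all, 5 of the 20 peaks (MPO peaks 4 to 6, cluster peaks 3 and 4) had a surround of at least 250 tags per 10 kb, as had 1.86% of the list. No input was analysed, so tags from open chromatin and tags from binding cannot be told apart.

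**Figure D4:**
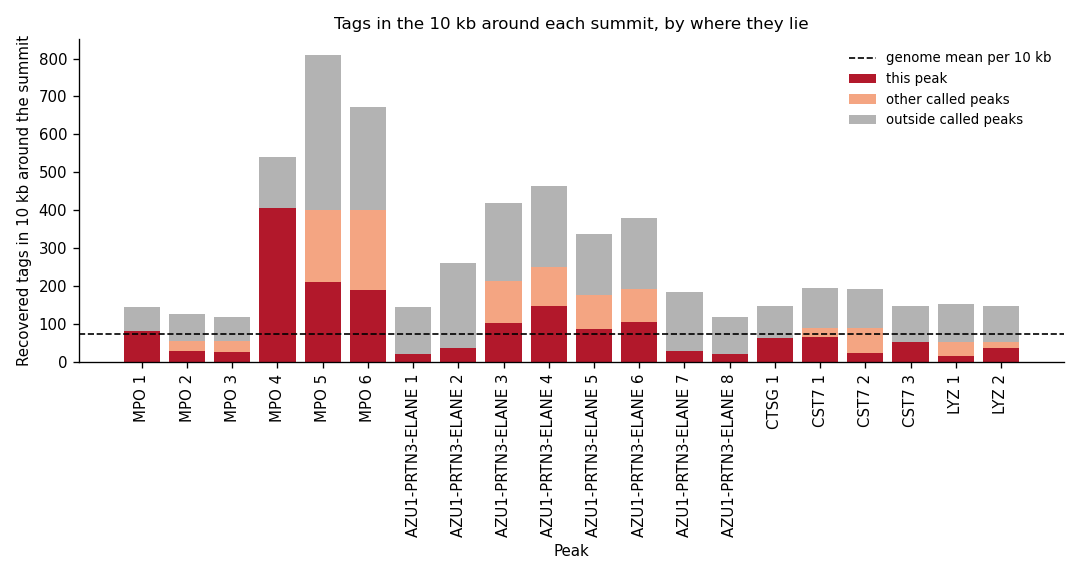
Recovered tags in the 10 kb around each summit (bars from 0), split into the peak's own tags (dark red), other called peaks (light red) and bases outside called peaks (grey), with the genome mean of 73.7 as a dashed line. MPO peaks 4 to 6 and cluster peaks 3 to 6 stand on windows of 337 to 810 tags, while the windows of CTSG, CST7 and LYZ hold 147 to 194.

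Set against the tags outside called peaks alone, the summits beside MPO fell on both sides of the list's median of 14.8 times the surround. MPO peak 6 was 18.6 times its surround, MPO peak 5 10.7 times and MPO peak 4 8.32 times. At least 10 times was reached by 12 of the 20 peaks (60%, 36.1% to 80.9%) and by 84.8% of the list. By this measure the sharpest members were again MPO peak 1 at 43.8 times, CST7 peak 1 at 31.4 and CTSG peak 1 at 30.5. The 3 peaks that led by fold were thus 592 to 718 bp long with 64 to 81 tags, and those that led by tags were MPO peaks 4 to 6.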

How the data were processed

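The deposited peak list of 1 library was used. The authors called peaks with MACS 1.4.2 without a control, with a p-value cutoff of 1e-05, 1 tag per position and a local background from 10 kb, per the file headers; the fragment size was 88 bp. Build hg19 and Bowtie2 2.1.0 are named in the submitters' processing notes. The deposited columns are whole tag counts, a score (the caller's p-value as −log10, multiplied by 10) and a fold (ratio of summit to local background); counts are not normalised.

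Tags per 10 kb were recovered by solving the Poisson tail of tags and score over the peak length (at least 176 bp), and summit height as fold times that background over 88 bp. Both came out whole (within 0.05 tags, or 0.15 at the genome minimum, and 0.1 fragments) in 98.7% of the 36191 peaks and in all 20 members; 1252 peaks, 4 of them members, needed the tail at or above the tag count. Peaks over 5000 bp or with a score of 3000 or more were left out. With the window centred on the summit, 2 of 35720 windows held fewer tags than the called peaks inside them, against 58 and 72 when moved by 1 kb; centring on the peak midpoint also gave 2, so these centres cannot be told apart, and it changed the surround of the members by a factor of 0.962 to 1.02. Tags of peaks cut by the window were prorated. On 4982 simulated peaks both values were recovered in 100% of cases. Their scores and folds were made with the formulas that the recovery inverts, by the tail above the tag count. This checks the solving step only, not how the caller computed the deposited values. The simulated scores, when shuffled, gave whole values in 6.44%. Intervals are exact Poisson, exact Clopper-Pearson or order-statistic, at 95%, and reflect counting error, or spread among peaks, within 1 library. No p-value was computed.

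The members, words and thresholds were chosen with earlier results of these data known. Every member peak is named, as set for loci of 8 or fewer. The strands of MPO, ELANE, CST7 and LYZ are background knowledge. RefSeq's gene table (GRCh38.p14) served for gene order only. Scripts ran under Python 3.11.15 with SciPy 1.17.1, NumPy 2.4.6, Matplotlib 3.10.9 and pandas 2.3.3.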

Additional observations from a re-analysis of the deposited data

How the results depend on the processing

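The number of peaks at these loci depends on the window and the threshold by construction: it was 13 within 10 kb, 15 within 25 kb and 45 within 100 kb of the spans, 20 when any overlap of the peak counted, 10 with a score above the list's median of 106 and 3 with a fold of at least 10. The share with a fold of at least 10, 15.0% in the 50 kb window, was 40% in the 100 kb window, where peaks farther from the genes enter, and 60% when the summit was set against the tags outside called peaks, which also raised the median fold from 8.16 to 11.1. That comparison was chosen after seeing the data, and the share in the list rises with it to 84.8%. The median tags, 58.5 in the 50 kb window, ranged from 36 within 100 kb to 87 within 10 kb, inside the interval of 29 to 103; the median fold and the share stayed within their intervals for the 10 and 25 kb windows and for scores above the median, and so did the median fold for the 100 kb window. The median surround of 123 tags per 10 kb was the same without peaks at the caller's minimum (no member was at it), with the tail above the tag count only, and with the window centred on the peak midpoint, the last 2 chosen after seeing the data; it was not computed for other windows or thresholds. No paired analysis was possible because the peak list comes from a single library. Depth limits the weak end, where a member rests on 16 tags.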
